A study of Homo sapiens with 6 samples.

Results

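Alcohol dehydrogenases (ADH), aldehyde dehydrogenases (ALDH) and aldo-keto reductases (AKR) were examined after knockdown of the splicing factor SLU7 in PLC/PRF/5 cells, a long-established line from a human liver cancer (hepatocellular carcinoma). The members were the array rows whose only gene symbol begins with ADH, ALDH or AKR followed by a digit. These were 30 genes of the 15971 with a symbol of their own on the array, each with 1 row: 5 ADH, 17 ALDH and 8 AKR genes. No row that carries several symbols held a name of these families, and genes of the families that have no row of this kind were not analysed here. The siSLU7 arrays (3) came from cells transfected with siRNAs against SLU7, and the control arrays (3) from cells given an siRNA with an irrelevant target, in both cases 48 h before RNA was taken. The design text names 1 control siRNA, siGL2, whereas the descriptions of the control samples read siGL1, siGL2 and siGL3. These digits were taken as replicate numbers, as in the siSLU7 samples, but whether the 3 control arrays had the same siRNA is not certain. Both groups went through the same lipid transfection and were cultured in serum-containing medium, and all arrays represent 1 tumour cell line. Whether replicates of a group came from separate cultures is not stated in the labels. The p-values therefore rest on array-to-array spread alone, part or all of which may be technical.

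Each array was an Affymetrix Human Exon 1.0 ST array, deposited as 1 log2 value for each of 18708 transcript clusters, the groups of probe sets that cover a gene. SLU7 itself read 5.84, 5.58 and 6.21 log2 units in the siSLU7 arrays and 7.89, 7.01 and 7.24 in the control arrays. Every siSLU7 array was below every control array, a difference of -1.51 ± 0.31 (SE) log2 units or 35.2% of the control level (limma adjusted p = 0.0783, and p = 0.1 in an exact two-sided permutation test, the smallest that 3 arrays against 3 allow). siSLU7 replicate 1 and control replicate 2 were far from the remaining 4 arrays along the leading principal component. For some genes, though not all, differences are therefore also given within that pair of single arrays and within the other 4. Of 10 markers of hepatocytes and hepatoma, 8 were measured. TF (transferrin), APOA1, APOB and FGB had mean signals of 9.24 to 11.89 in siSLU7 arrays and 9.82 to 12.24 in control arrays. ALB (albumin) read 3.07 in siSLU7 and 3.87 in control arrays, below the lower quartile of every array (4.86 to 4.98). Between these lay AFP (5.21 in siSLU7 and 6.01 in control arrays), TTR (5.90 and 5.97) and SERPINA1 (4.56 and 5.07). Of 5 measured blood markers, PTPRC read 2.13 in siSLU7 and 2.05 in control arrays, while LYZ (lysozyme) read 9.17 in siSLU7 and 10.07 in control arrays, lower without overlap (limma adjusted p = 0.282), and HBB (6.07 in siSLU7 and 5.94 in control arrays) and CD14 (4.99 in siSLU7 and 5.08 in control arrays) were also above the lower quartile. Of 4 endothelium markers 0 had a mean below the lower quartile of every array, and of 6 fibroblast and stellate cell markers 2 did. PDGFRB, of the latter list, read 8.24 in siSLU7 and 8.36 in control arrays. The summed blood markers were 26.33 to 27.59 in siSLU7 and 27.31 to 27.83 in control arrays. The part of LYZ or the other markers in any result was not tested.

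These 3 enzyme families handle alcohols, aldehydes and ketones. In the liver, alcohol dehydrogenases oxidise ethanol and retinol to aldehydes, and aldehyde dehydrogenases oxidise aldehydes onward to acids, including acetaldehyde to acetate and retinal to retinoic acid. Aldo-keto reductases mostly run the other way with NADPH, reducing carbonyl groups of sugars, steroids, prostaglandins and lipid breakdown products. Several members belong to amino acid metabolism and carry their family name for their protein fold and chemistry.

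None of the 30 genes passed the limma test over all transcript clusters (Benjamini-Hochberg adjusted p under 0.05), a threshold that 0.433% of all clusters passed (0.299% lower and 0.134% higher). The smallest adjusted p values were those of ALDH16A1 (0.0583), ALDH18A1 (0.0731) and AKR1C1 (0.112). At an unadjusted limma p under 0.05, 7 members were lower and 0 higher in siSLU7 arrays, which is 23.3% of the members, against 6.54% of all clusters lower and 6.55% higher. The 7 were ALDH16A1, ALDH18A1, ALDH3B1, AKR1A1, AKR1C1, AKR1C3 and AKR1C4. The last 3 are paralogs whose values may not be independent, so they may count for fewer than 3 separate genes. In 10 members every siSLU7 array lay below every control array, against 9.21% of all clusters, and in 2 every siSLU7 array lay above, against 9.64% of all clusters (18.9% of all clusters in either direction). The difference was below 0 in 22 of the 30 genes, against 49.5% of all clusters, and the median difference was -0.27 log2 units, against 0.00 over all clusters. Fits with array weights, with an intensity trend and robust shrinkage, or with a block for the pair of arrays that stand apart each called the same 3 members lower: ALDH16A1, ALDH18A1 and AKR1C1. That block was defined from the values of these same arrays. Over all 18708 clusters the 3 fits called, in the order given, 575, 441 and 783, against 81 with group as the only term.

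**Figure D1:**
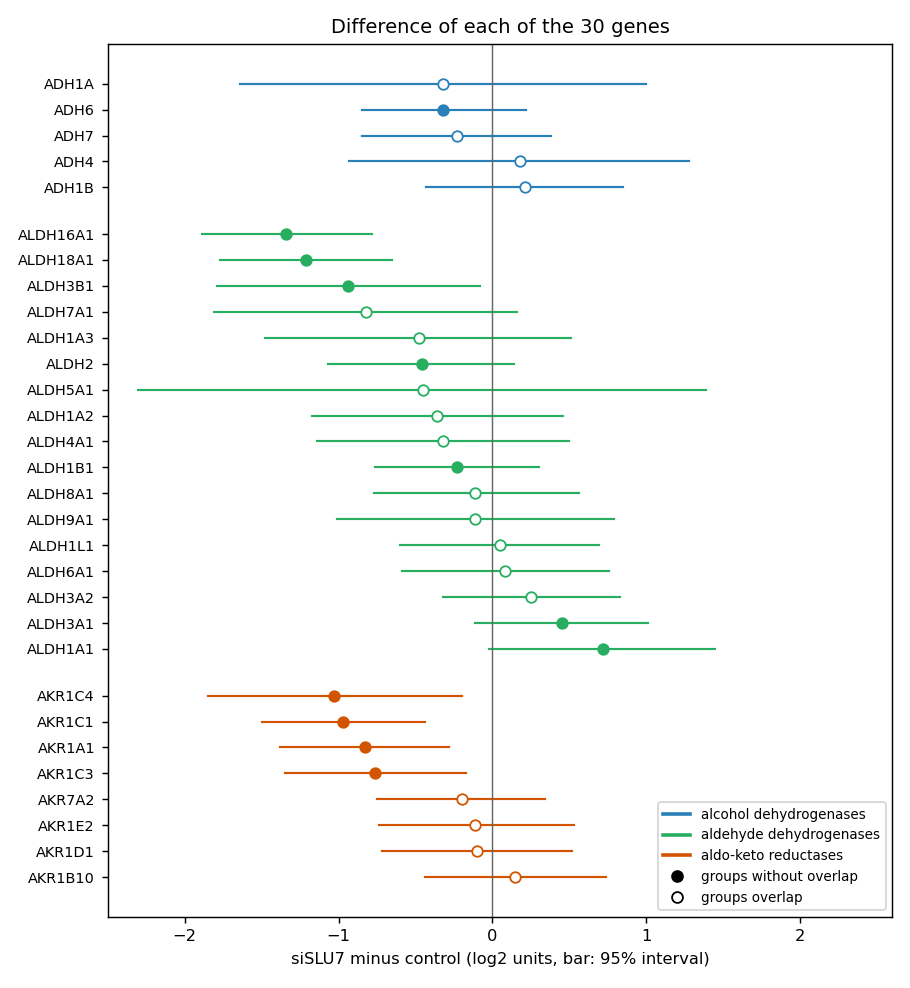
Difference between siSLU7 and control arrays (3 each) in log2 units for all 30 genes, ordered within each family, with bars for the limma 95% interval; filled circles mark genes whose groups do not overlap. Intervals clear of 0 are all on the lower side and belong to 7 genes, from ALDH16A1 at -1.34 to AKR1C3 at -0.76.

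The alcohol dehydrogenases of ethanol and retinol oxidation gave low signals and no difference that passed the test. All 5 measured genes (ADH1A, ADH1B, ADH4, ADH6 and ADH7) belong to the ADH gene cluster on human chromosome 4, and 4 of them had a mean over the 6 arrays below the lower quartile of every array. Their differences ran from -0.32 to 0.21 log2 units with a median of -0.23, and 3 of 5 were below 0. Signals of this size may be near background, and the files used here give no detection calls.

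ADH4, the class II enzyme of liver, read 3.98, 6.07 and 5.34 log2 units in the siSLU7 arrays and 4.71, 5.17 and 5.00 in the control arrays. The siSLU7 arrays spread on both sides of the control arrays, replicate 1 lowest, and the difference was 0.18 ± 0.49 (SE) with a limma adjusted p of 0.946. Within the pair that stands apart it was -1.18, and within the other 4 arrays 0.85. ADH7, the class IV enzyme of upper digestive epithelium that also acts on retinol, read 4.82, 4.35 and 5.00 in the siSLU7 arrays and 4.78, 5.02 and 5.06 in the control arrays. These values overlapped too (-0.23 ± 0.27, adjusted p = 0.823). ADH1A, a class I enzyme of ethanol oxidation, showed the widest spread of the family, with 6.02, 3.87 and 3.59 in siSLU7 arrays against 5.06, 4.74 and 4.64 in control arrays. Its siSLU7 replicate 1 was above all control arrays and the other two were below them, which left a difference of -0.32 ± 0.58 (adjusted p = 0.904). The difference of ADH1A was 1.27 within the pair that stands apart and -1.12 within the other 4 arrays. ADH1B, the neighbouring class I gene, averaged 4.10 ± 0.09 in siSLU7 and 3.89 ± 0.41 in control arrays (SD, n = 3 each). ADH6, a little-studied class V gene, averaged 3.42 ± 0.11 in siSLU7 and 3.74 ± 0.12 in control arrays (SD, n = 3 each), and its groups were separated by 0.09 log2 units at signals where order is uncertain.

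The aldehyde dehydrogenases were mixed: 12 of 17 differences were below 0, with a median of -0.32 log2 units and a range of -1.34 to 0.72. Groups did not overlap in 5 lower genes (ALDH16A1, ALDH18A1, ALDH3B1, ALDH2 and ALDH1B1) and in 2 higher ones (ALDH1A1 and ALDH3A1), against 9.21% of all clusters lower and 9.64% higher. At an unadjusted limma p under 0.05, 3 were lower and 0 higher, against 6.54% of all clusters lower and 6.55% higher.

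ALDH16A1, a member that in mammals lacks the catalytic cysteine and is thought to act without enzyme activity, had the largest difference of the 30 genes. It read 9.28, 9.36 and 9.32 log2 units in the siSLU7 arrays and 10.42, 10.73 and 10.82 in the control arrays. The siSLU7 arrays were tightly grouped and 1.06 log2 units separated the nearest arrays of the groups. The difference of -1.34 ± 0.24 (SE) corresponds to 39.6% of the control level, or 2.52-fold lower (95% interval 1.72 to 3.69), with a limma adjusted p of 0.0583. It was -1.45 within the pair that stands apart, -1.28 within the other 4 arrays, and between -1.45 and -1.25 without any 1 array.

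Of the enzymes that use amino acids or folate, ALDH18A1 stood lowest. It encodes the mitochondrial synthase that turns glutamate into the precursor of proline and ornithine, so it is a biosynthetic enzyme with an aldehyde dehydrogenase domain. ALDH18A1 read 9.24, 9.28 and 9.39 in the siSLU7 arrays and 10.33, 10.46 and 10.75 in the control arrays. No siSLU7 array came within 0.94 log2 units of a control array. Its difference was -1.21 ± 0.24 (SE), or 43.2% of the control level (2.31-fold lower, 95% interval 1.57 to 3.40), with a limma adjusted p of 0.0731. Within the pair it was -1.22 and within the other 4 arrays -1.20.

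The other 7 genes of amino acid and folate metabolism overlapped between groups. ALDH4A1, which oxidises the same intermediate onward in proline breakdown, read 10.27, 9.89 and 9.63 in the siSLU7 arrays and 9.63, 10.89 and 10.22 in the control arrays. Control replicate 2 was highest and control replicate 1 was level with siSLU7 replicate 3, so that the difference of -0.32 ± 0.36 (adjusted p = 0.818) was within the spread. ALDH7A1, an enzyme of lysine breakdown, averaged 7.52 ± 0.77 in siSLU7 and 8.35 ± 0.51 in control arrays (SD, n = 3 each), a difference of -0.82 ± 0.43 (SE) with an adjusted p of 0.485. ALDH5A1, which clears succinic semialdehyde from GABA, had the largest standard error of the 30 genes (0.81), at 4.97 ± 1.15 in siSLU7 and 5.42 ± 1.58 in control arrays (SD, n = 3 each). ALDH6A1 of valine breakdown (0.08), ALDH8A1 of the kynurenine pathway (-0.11), ALDH9A1 of carnitine synthesis (-0.11) and ALDH1L1, the formyltetrahydrofolate dehydrogenase (0.05), had log2 differences smaller than their standard errors, and each adjusted p was at least 0.960 or, for ALDH8A1, 0.946.

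Both mitochondrial enzymes of acetaldehyde oxidation were slightly lower without passing the test. ALDH2, the main acetaldehyde dehydrogenase of liver, read 10.78, 11.36 and 11.09 in the siSLU7 arrays and 11.38, 11.48 and 11.75 in the control arrays. The groups came within 0.03 log2 units of each other, and the difference of -0.46 ± 0.26 (SE), or 72.6% of the control level, had a limma adjusted p of 0.54. ALDH1B1, its close relative, averaged 8.37 ± 0.12 in siSLU7 and 8.60 ± 0.07 in control arrays (SD, n = 3 each), 85.4% of the control level (adjusted p = 0.785). The 95% intervals of the log2 difference, -1.07 to 0.14 for ALDH2 and -0.76 to 0.30 for ALDH1B1, leave room for a larger decrease as well as for none.

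The 3 retinal dehydrogenases, which make retinoic acid, differed in direction. ALDH1A1, also widely used as a marker of liver and of tumour progenitor cells, read 7.22, 7.13 and 7.23 in the siSLU7 arrays and 6.73, 5.82 and 6.88 in the control arrays. Every siSLU7 array was above every control array, by 0.25 log2 units at the closest, and control replicate 2 was lowest. The difference of 0.72 ± 0.32 (SE), or 1.64-fold higher, had a limma adjusted p of 0.394, and it shrank to 0.38 within the other 4 arrays and to 0.39 at the lowest when 1 array (control replicate 2) was left out. ALDH1A2 averaged 4.56 ± 0.42 in siSLU7 and 4.92 ± 0.56 in control arrays, and ALDH1A3 4.45 ± 0.89 in siSLU7 and 4.94 ± 0.30 in control arrays (SD, n = 3 each). Both overlapped between groups at signals around the lower quartile of the arrays.

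Among enzymes of fatty and aromatic aldehydes, ALDH3B1 was lower and ALDH3A1 higher, and neither passed the test. ALDH3B1, which oxidises lipid-derived aldehydes, read 5.42, 6.06 and 4.61 in the siSLU7 arrays and 6.37, 6.43 and 6.09 in the control arrays. Its groups were apart by only 0.03 log2 units, and siSLU7 replicate 3 was lowest. The difference of -0.94 ± 0.37 (SE) had a limma adjusted p of 0.334 and ran between -1.29 and -0.56 without any 1 array, the smallest being without siSLU7 replicate 3. ALDH3A1, an enzyme of aromatic and lipid peroxidation aldehydes known from cornea, read 7.44, 7.19 and 7.06 in the siSLU7 arrays and 6.70, 6.95 and 6.68 in the control arrays. All siSLU7 arrays were above all control arrays, with a difference of 0.45 ± 0.25 (adjusted p = 0.507). ALDH3A2, the fatty aldehyde dehydrogenase of the endoplasmic reticulum, averaged 9.05 ± 0.01 in siSLU7 and 8.80 ± 0.28 in control arrays (SD, n = 3 each). Per-array values of ALDH1A1, ALDH3A1 and ADH1A are shown because of their values, outside the rule for naming genes.

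**Figure D2:**
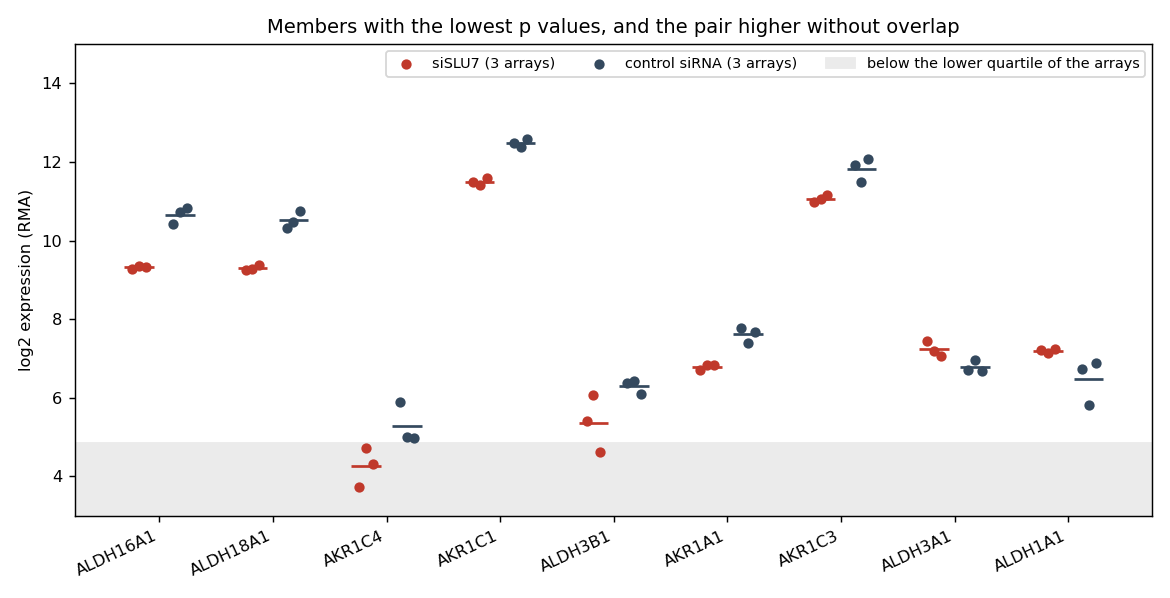
Log2 expression in each siSLU7 array (red, left of each gene) and each control array (dark, right) for the 7 genes with an unadjusted limma p under 0.05 and for ALDH3A1 and ALDH1A1, with a line at each group's mean of 3 arrays; the grey band lies below the lower quartile of the arrays (4.86). The groups do not overlap in any of the 9 genes, which for ALDH3A1 and ALDH1A1 was the reason for showing them. The other 7 were chosen by p in these same arrays. The gap is 1.06 log2 units in ALDH16A1 but 0.03 in ALDH3B1.

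The aldo-keto reductases were the family with the lowest median difference, -0.48 log2 units, and 7 of 8 genes were below 0. In 4 of them (AKR1A1, AKR1C1, AKR1C3 and AKR1C4) all siSLU7 arrays lay below all control arrays, against 9.21% of all clusters, with differences of -1.03 to -0.76 log2 units. The other 4 ran from -0.20 to 0.15 and overlapped between groups. No test of a difference between the families was made.

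AKR1C1, AKR1C3 and AKR1C4 are neighbouring steroid reductases on chromosome 10. Their start regions are shown because these 3 genes were lower together and arose by duplication; they show how far the copies still match. Each window holds the 250 bases before and the first 50 bases after an annotated start (RefSeq, GRCh38.p14, plus strand, 5′ to 3′): AKR1C1 at chr10:4963165-4963464, AKR1C3 at chr10:5048531-5048830 (the upstream of its 2 listed starts) and AKR1C4 at chr10:5196587-5196886. Capitals mark runs of at least 12 bases that occur in another of the 3 windows.
AKR1C1: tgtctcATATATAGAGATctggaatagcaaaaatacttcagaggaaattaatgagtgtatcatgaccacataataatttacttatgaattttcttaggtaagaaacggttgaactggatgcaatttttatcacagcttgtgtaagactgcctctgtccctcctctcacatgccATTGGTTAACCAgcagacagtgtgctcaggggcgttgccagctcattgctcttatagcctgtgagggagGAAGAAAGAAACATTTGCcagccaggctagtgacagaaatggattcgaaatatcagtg
AKR1C3: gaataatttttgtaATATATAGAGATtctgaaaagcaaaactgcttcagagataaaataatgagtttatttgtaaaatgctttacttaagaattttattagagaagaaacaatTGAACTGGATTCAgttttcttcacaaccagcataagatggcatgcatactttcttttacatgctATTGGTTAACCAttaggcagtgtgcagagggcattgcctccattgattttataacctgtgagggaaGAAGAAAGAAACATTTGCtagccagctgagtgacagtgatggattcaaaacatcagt
AKR1C4: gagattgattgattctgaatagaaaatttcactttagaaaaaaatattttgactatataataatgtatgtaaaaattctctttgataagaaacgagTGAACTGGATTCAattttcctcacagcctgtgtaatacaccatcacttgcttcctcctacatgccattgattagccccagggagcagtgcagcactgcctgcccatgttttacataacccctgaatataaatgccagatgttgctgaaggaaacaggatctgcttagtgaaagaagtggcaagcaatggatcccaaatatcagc
In a global alignment the AKR1C1 and AKR1C3 windows were 73.5% identical, AKR1C1 and AKR1C4 61.6%, and AKR1C3 and AKR1C4 60.7%. The window of the other listed AKR1C3 start, not printed, was 71.3% identical to AKR1C1 and 63.3% to AKR1C4. It was 67.8% identical to the printed AKR1C3 window, so the order of the pairs depends on the start used. Shared runs covered 42 bases of the AKR1C1 window, 55 of AKR1C3 and 13 of AKR1C4. The transcripts were not compared here. Because the genes are paralogs, probes of 1 gene may bind transcripts of another or of AKR1C2, not analysed here, so these 3 values may not be independent.

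AKR1C1, which inactivates progesterone, read 11.49, 11.42 and 11.59 log2 units in the siSLU7 arrays and 12.47, 12.37 and 12.58 in the control arrays. Replicates had an SD of 0.08 in siSLU7 and 0.11 in control arrays, and the groups were 0.78 log2 units apart at the closest. The difference was -0.97 ± 0.23 (SE), or 50.9% of the control level (1.96-fold lower, 95% interval 1.36 to 2.84), with a limma adjusted p of 0.112. In the pair that stands apart it was -0.87, and the other 4 arrays gave -1.02.

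AKR1C3, which activates androgens and forms prostaglandin F, read 10.98, 11.05 and 11.17 in the siSLU7 arrays and 11.91, 11.50 and 12.07 in the control arrays. Control replicate 2 was the closest to the siSLU7 arrays, with 0.33 log2 units between them. Its difference was -0.76 ± 0.26 (SE), or 59.0% of the control level, with a limma adjusted p of 0.243. AKR1C4, the liver enzyme that reduces steroid and bile acid intermediates, read 3.74, 4.71 and 4.32 in the siSLU7 arrays and 5.88, 4.99 and 4.97 in the control arrays. The groups did not overlap, but all siSLU7 values lay below the lower quartile of the arrays and control replicate 1 was well above the other two. Its difference was -1.03 ± 0.36 (SE) with an adjusted p of 0.266, and its size is uncertain at this signal.

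AKR1A1, the general aldehyde reductase that also converts glucuronate to gulonate, read 6.70, 6.83 and 6.84 in the siSLU7 arrays and 7.77, 7.40 and 7.68 in the control arrays. The nearest arrays of the groups were 0.56 log2 units apart, and the difference of -0.83 ± 0.24 (SE), or 56.4% of the control level, had a limma adjusted p of 0.176. AKR7A2, which reduces succinic semialdehyde and aflatoxin dialdehyde, averaged 9.84 ± 0.14 in siSLU7 and 10.04 ± 0.14 in control arrays (SD, n = 3 each; adjusted p = 0.827). AKR1D1, the reductase that forms the bent ring shape of bile acids, averaged 5.14 ± 0.30 in siSLU7 and 5.24 ± 0.25 in control arrays (SD, n = 3 each). AKR1E2, named AKR1CL2 on the array and known for reducing anhydrofructose, had a difference of -0.11 ± 0.28 (SE) at signals below the lower quartile. AKR1B10, a retinal reductase known for high levels in many liver tumours, averaged 3.08 ± 0.28 in siSLU7 and 2.93 ± 0.16 in control arrays (SD, n = 3 each), at percentile 6.84 of the cluster signals, too dim to read a difference from.

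Differences were also read against array signal, since dim rows vary more and can hide a change. Signal depends on the probes as well as on the transcript and does not order the genes by abundance. Of 14 members with a mean above the median of all clusters (6.61 log2 units), 7 were lower without overlap, against 12% of all clusters above that median, and 5 had a lower difference at an unadjusted limma p under 0.05, against 8.02%. Another 2 of the 14 were higher without overlap, against 1148 of the 9354 clusters above that median. Of 16 members below the median, 3 were lower without overlap, against 6.47% of all clusters there. In 2 of the 16 the difference was lower at an unadjusted limma p under 0.05, against 5.07%. None of the 16 was higher without overlap, against 656 of the 9354 clusters there. The median difference was -0.39 in the 14 brighter members and -0.17 in the 16 dimmer ones, beside -0.00 and 0.01 in all clusters of the same classes.

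**Figure D3:**
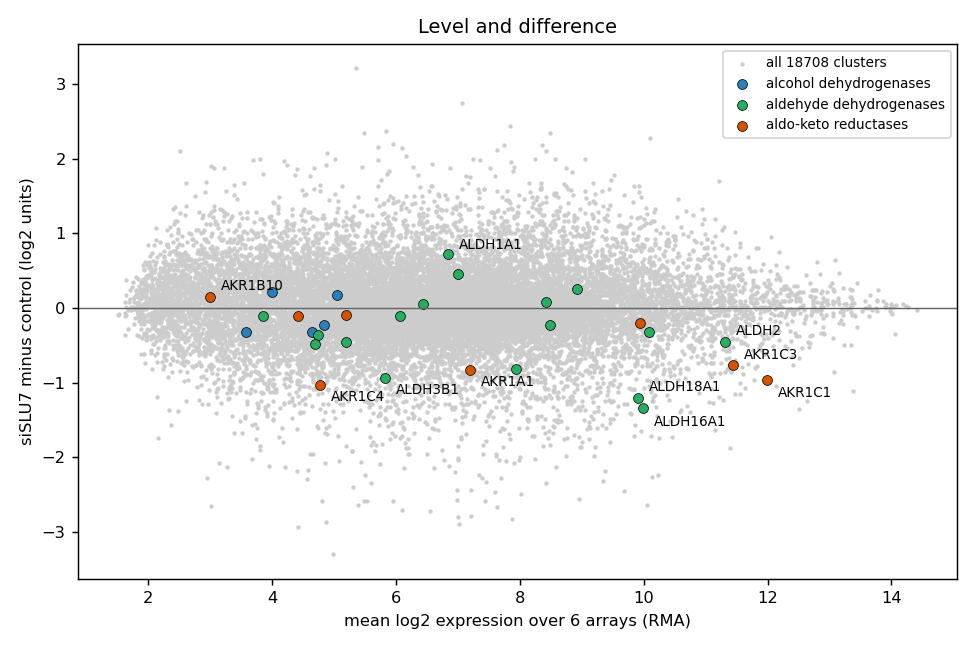
Mean log2 expression over the 6 arrays (horizontal) and siSLU7 minus control difference in log2 units (vertical) for all 18708 clusters (grey) and the 30 genes coloured by family. ALDH16A1, ALDH18A1, AKR1C1 and AKR1C3 combine a mean signal of 9.91 to 11.99 with differences of -1.34 to -0.76, while the 5 alcohol dehydrogenases stay between 3.58 and 5.05 in signal.

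Start regions were searched for the antioxidant response core, the letters TGACNNNGC bound by NRF2 with small MAF proteins, and for the hypoxia response core, ACGTG or GCGTG, on both strands. RefSeq windows existed for 26 of the 30 genes. The antioxidant core occurred in 1 of the 26 (AKR7A2) and in 16.1% of all 27305 genes with a window, and the hypoxia core in 11 of 26 and in 52.4% of all genes. ALDH18A1, the member with the lowest difference that had a window, is shown for its 5 hypoxia core matches (in capitals, including both strands of 1 palindrome), which none of the AKR1C windows held. Its window is chr10:95656662-95656961, minus strand, GRCh38.p14, 5′ to 3′.
ALDH18A1: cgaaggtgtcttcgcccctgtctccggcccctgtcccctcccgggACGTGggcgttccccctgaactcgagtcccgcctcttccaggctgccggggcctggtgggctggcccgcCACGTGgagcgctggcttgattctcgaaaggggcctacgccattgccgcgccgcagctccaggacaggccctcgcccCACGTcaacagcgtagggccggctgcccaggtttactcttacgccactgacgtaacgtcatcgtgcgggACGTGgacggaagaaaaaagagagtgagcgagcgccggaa
G and C made up 67.0% of this window, against 41.0% for AKR1C1 and 38.0% for AKR1C4. Both hypoxia cores include the letters CG, which occurred 31 times in this window, against 3 for AKR1C1 and 1 for AKR1C4. How many windows of all genes held 5 matches was not counted. Among other members, ALDH3A2 (difference 0.25 log2 units) held 4 hypoxia core matches in 1 of its 2 windows. AKR1A1 (-0.83) held 3, as did 1 of the 2 windows of ALDH1A2 (-0.36). Any link between matches and differences was not tested. A match is a description of the letters, and other parts of these genes were not searched.

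Genes of connected pathways were compared in the same fit. NRF2, encoded by NFE2L2, is the transcription factor of the oxidant response and a known inducer of AKR1C and ALDH3A1 genes in human cells. Of 31 measured regulators and targets, SLC7A11 rose and ABCC2 fell at a limma adjusted p under 0.05, and the remaining 29 stayed above that threshold. Across the array, 0.134% of clusters were called higher and 0.299% lower at the same threshold. SLC7A11, the cystine importer, read 8.40, 8.36 and 8.62 log2 units in the siSLU7 arrays and 6.97, 6.43 and 6.34 in the control arrays. All siSLU7 arrays were higher, by 1.88 ± 0.27 (SE) or 3.68-fold (limma adjusted p = 0.0439). ABCC2, the export pump of conjugated bile pigments and glutathione conjugates, read 5.63, 6.42 and 5.97 in the siSLU7 arrays and 8.43, 7.81 and 9.07 in the control arrays. Every siSLU7 array was lower, by -2.43 ± 0.37 or 18.5% of the control level (adjusted p = 0.0483). Neither of these calls passed without any 1 of the 6 arrays. The list's median difference was 0.04. At an unadjusted limma p under 0.05 its genes were 5 higher and 2 lower (6.55% and 6.54% of all clusters). Besides SLC7A11, those higher were KEAP1 (0.94 log2 units), OSGIN1 (0.92), TXNRD1 (0.91) and UGDH (0.80). Besides ABCC2, the lower gene was GSR (-0.87). NQO1 was at 6.81 in both groups. NFE2L2 itself differed by 0.18, with every siSLU7 array above every control array by 0.03 at the closest.

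Retinoid handling genes had a median of -0.15 over 23 measured members, 18 of them below 0, and none passed the limma test (1 lower at an unadjusted p under 0.05, against 6.54% of all clusters). The 2 with the lowest p were CYP26A1, which degrades retinoic acid and is induced by it, at -1.14 ± 0.30 (SE; adjusted p = 0.142), and RDH11, a retinal reductase, at -0.53 (adjusted p = 0.472). CYP26A1 read 4.50, 3.84 and 4.36 in the siSLU7 arrays and 5.00, 5.39 and 5.73 in the control arrays, without overlap but near the lower quartile. Among 6 other enzymes of ethanol and its products, ACSS2, which activates acetate, had the lowest p (-1.13 ± 0.36, adjusted p = 0.211), followed by ADHFE1, a hydroxyacid transhydrogenase (50% of the control level, adjusted p = 0.36, groups overlapping). CYP2E1, the microsomal ethanol oxidase, read 1.89 in siSLU7 and 1.81 in control arrays, near the bottom of the scale. None of the 6 passed, with 0 higher and 2 lower at an unadjusted limma p under 0.05. Over all clusters 6.55% were higher and 6.54% lower at that threshold.

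Of 27 other genes of carbonyl, steroid and bile acid reduction, none passed the limma test, 8 were lower and 1 higher at an unadjusted p under 0.05 (6.54% of all clusters were lower and 6.55% higher), and the median was -0.25. HSD17B8, of mitochondrial fatty acid synthesis and steroid oxidation, read 2.25, 3.35 and 4.71 in the siSLU7 arrays and 6.93, 5.73 and 6.26 in the control arrays, a difference of -2.87 ± 0.59 (SE; adjusted p = 0.0756). HSD17B4, the peroxisomal multifunctional enzyme, read 5.34, 5.90 and 6.30 in the siSLU7 arrays and 8.72, 6.99 and 8.43 in the control arrays (-2.20 ± 0.47, adjusted p = 0.086). In both genes the groups lay apart, and the siSLU7 values of HSD17B8 were below the lower quartile. CBR1, a carbonyl reductase with substrates in common with the AKR1C enzymes, differed by 0.04 (adjusted p = 0.987). Hepatocyte markers lay in the same direction as the lower members: all 8 measured were below 0, with a median of -0.69 and summed levels of 58.63 to 61.18 in siSLU7 arrays against 63.65 to 65.58 in control arrays, and their part in the differences was not tested. In RNA from whole cultures, fewer cells expressing a gene and less RNA per cell cannot be told apart.

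**Figure D4:**
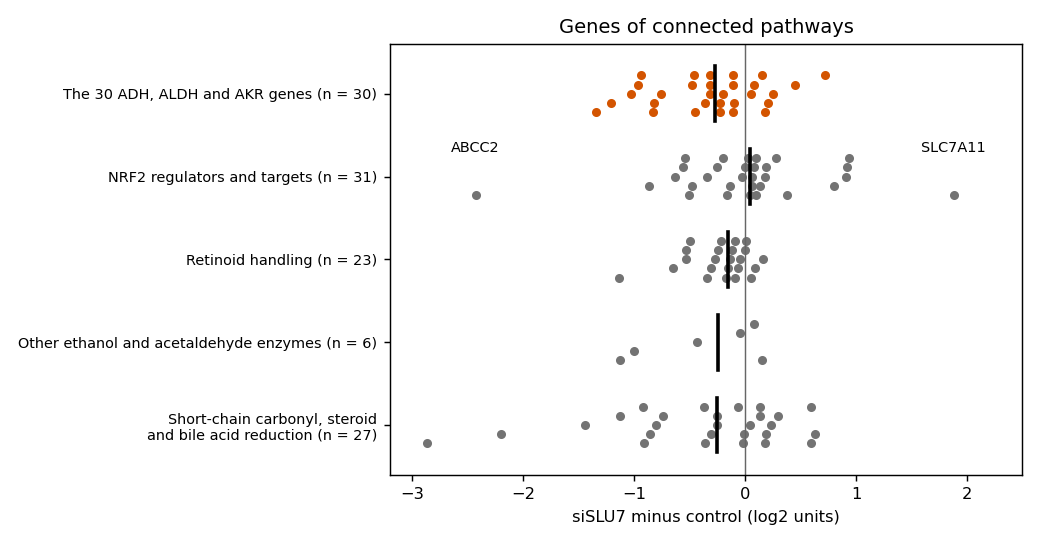
Difference between siSLU7 and control arrays (3 each) in log2 units for the 30 genes (orange) and for each gene of 4 connected lists (grey), with a black bar at each list's median; vertical offsets only separate the points. The medians are -0.27 for the 30 genes and 0.04 for NRF2 regulators and targets, whose SLC7A11 and ABCC2 are the only genes plotted that passed the limma test.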

How the data were processed

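Gene expression was measured in 6 arrays of PLC/PRF/5 cells, 3 with SLU7 siRNA and 3 with control siRNA. The deposited values are log2 expression values per transcript cluster: the authors used RMA, per the submitters' processing notes, and the aroma.affymetrix core chip definition, per the labels. For build and annotation, the version is not given in the sources used here. Altered splicing of a transcript can shift these gene-level values. Symbols were those of the platform annotation (1 symbol for 16287 of 18708 clusters), updated through the RefSeq table of GRCh38.p14, which held all 30 members.

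Groups were compared with limma 3.58.1 in R 4.3.3 (lmFit and eBayes, group as the only term, no filter, Benjamini-Hochberg over all clusters, threshold 0.05). The fit was tested on simulated data. Levels below the lower quartile of the arrays are called dim. The filter on dim clusters used a slightly different cut, the lower quartile of the cluster means over the 6 arrays, and left 14031 clusters. The members, lists and alternatives were chosen with earlier results of these data known. Per-array values are given for members with an unadjusted p under 0.05 and for the 2 with the highest signal in each family, and listed genes are named if called or among the 2 lowest p of their list; markers and a few other genes named outside this rule were chosen after their values were seen. No 2 arrays were copies (at most 9 equal values). The number of arrays limits the precision, with a typical standard error of 0.312 log2 units. Alternatives were quantile normalization, median centring, a filter on dim clusters, array weights, robust shrinkage with an intensity trend, blocks, a threshold of 0.01, and leaving out arrays.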

Additional observations from a re-analysis of the deposited data

How the results depend on the processing

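The 81 calls over all clusters became 575 with array weights, 783 with the 2 arrays that stand apart as a block, 441 with an intensity trend and robust shrinkage, and 324 without dim clusters. They became 0 with a replicate block (limma, 1845 clusters at an unadjusted p under 0.05), in the other 4 arrays alone (2922), at a threshold of 0.01, and without any 1 array (0 to 0 calls, 1833 to 2573 clusters at an unadjusted p under 0.05). Members called were 0, but 3 with array weights, 3 with the array block, 3 with the trend and 2 (ALDH16A1 and ALDH18A1) without dim clusters, where fewer clusters were tested. Called genes of the connected lists, 2, became 5, 5 and 5 with array weights, the array block and the trend. In these fits the calls over all clusters also rose, from 81 to 575, 783 and 441. The list calls became 0 with the replicate block, in the 4 arrays and without any 1 array (0 to 0). SLU7 passed with array weights (-1.61, adjusted p = 0.0269), the array block (-1.51, 0.043), the trend (-1.51, 0.033) and without dim clusters (-1.51, 0.0411). The median of the alcohol dehydrogenases was -0.34 with array weights and 0.18 without dim clusters, where only ADH4 was left, and -0.28 to 0.07 without 1 array. That of the aldehyde dehydrogenases was -0.22 with array weights, -0.17 in the 4 arrays and -0.33 to -0.17 without 1 array, and that of the aldo-keto reductases -0.76 without dim clusters and -0.57 to -0.44 without 1 array. Deviations of same-numbered arrays from their group means correlated at -0.381, -0.314 and 0.141, and those of differently numbered arrays at -0.349 to 0.517. With 3 arrays in each group, these values cannot settle whether same-numbered arrays were paired. The replicate block called 0 members, as did the fit with group as the only term. Signs turned, near 0, with array weights in AKR1B10 (-0.00), ALDH1L1 (-0.04) and ALDH8A1 (0.01), and in the 4 arrays in ALDH1L1 (-0.02). Without 1 array they turned in ADH1A (-1.08 to 0.13), ADH4 (-0.29 to 0.75), AKR1D1 (-0.27 to 0.03), AKR1E2 (-0.26 to 0.08), ALDH1L1 (-0.15 to 0.21), ALDH4A1 (-0.63 to 0.00), ALDH5A1 (-1.27 to 0.31), ALDH6A1 (-0.10 to 0.31), ALDH8A1 (-0.27 to 0.13) and ALDH9A1 (-0.37 to 0.21). The causes were not tested. All 7 members with an unadjusted p under 0.05 kept their direction in these analyses; for analyses without 1 array this follows from the groups not overlapping. Quantile normalization and median centring left every member's sign and side of the threshold as it was.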
